A study of Mus musculus with 2 samples.

Results

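The miRNAs described here are those numbered 6000 or higher that were detected in bone marrow (BM) LSKs, the lineage-negative, Sca-1-positive and c-Kit-positive cells that hold hematopoietic stem and progenitor cells. A miRNA was included when its name carried a number of at least 6000 and the scanner software flagged it as detected on at least 1 of 2 arrays. This rule took 44 of the 714 mouse miRNAs with such numbers, out of 213 detected and 1881 measured in all. LSKs came from Scl/tTA-BCR/ABL mice on a C57BL/6 background, in which tTA, placed under control of Scl, a gene of blood stem cells, turns on the leukemia fusion gene BCR/ABL once doxycycline is removed. The compared groups were 3W_LSK, sorted at week-3 after withdrawal, and 0W_LSK, sorted at week-0, when the drinking water still held 20 mg/L doxycycline and the transgene was off. Mice of both groups carried the transgene, and their age was not given in the sources used here.

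Each group was 1 array, hybridised with RNA pooled from 3 mice, and both arrays lay on 1 slide. There was therefore no replicate check and no test, and every error below is a standard error (SE) over spots within an array, which leaves out differences between mice. No pool without the transgene was withdrawn in parallel, so doxycycline withdrawal, time, the single pools and BCR/ABL cannot be told apart. In sorted pools of this kind, fewer cells of a type and less RNA per cell cannot be told apart either. Of the marker miRNAs, 5 of 5 of stem and progenitor cells and 2 of 2 of blood cells were detected on both arrays. Markers of erythroid, lymphoid, liver, muscle, neuron and epithelial cells were detected for 0 of 10 at week-3 and 1 of 10 at week-0, the erythroid miR-451a. The summed signal of the stem and progenitor markers was 329 at week-3 and 1242 at week-0. The granulocyte miR-223-3p was at 1121 at week-3 and 820.1 at week-0. The part of a changed cell mixture in the values below was not tested.

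A canonical miRNA is cut from a long primary transcript by Drosha and from its hairpin by Dicer, and the strand taken up by Argonaute guides silencing through its seed, bases 2 to 8. Mirtrons take another route: the hairpin is a short intron, released by splicing and debranching instead of by Drosha, so its ends are the ends of the intron. miRNA numbers follow the order of registration, and the numbers of 6000 or higher were given late, mostly to species found by deep sequencing. Many of them are mirtron arms whose function has not been worked out, and no role in LSKs is stated here for any of them.

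No mature sequence was found in RefSeq (GRCm38.p6) for miR-6360, miR-6378, miR-7040-5p and miR-7042-5p. They are absent from the values on mature sequences, seeds, gene spans and hairpin ends below. Mature sequences were found for the other 40 of the 44 miRNAs. Those below are shown because the values turn on them: miR-6366, miR-8117, miR-8110, miR-7047-5p and miR-6769b-5p have the brightest signals, miR-6965-5p has the seed of miR-7047-5p, those from miR-6908-5p to miR-6898-5p were counted as higher, and miR-7020-5p was the only one lower past the limit. Seeds are in capitals.
miR-6366: aGCUAAGGggcccggggagcca
miR-8117: gCUCGUGUggaacagaagggg
miR-8110: aAGCGUGGauugggggggggg
miR-7047-5p: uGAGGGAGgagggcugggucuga
miR-6965-5p: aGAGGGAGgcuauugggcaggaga
miR-6769b-5p: cCUGGUGGguggggaagagc
miR-6908-5p: uUGCCUGUcagggagagcccca
miR-7036a-5p: aGCGGGGUucgguggggaagaga
miR-6973b-5p: gUAGGUAUggggagaggacaggga
miR-7118-5p: uGGGGAAGgcgggagagggaac
miR-6931-5p: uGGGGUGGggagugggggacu
miR-7011-5p: aGGAGGAUgggagagggaggugu
miR-6969-5p: cAGCAGAGuagggagcaaaaga
miR-7005-5p: cCUGGGGAugggaggaccagca
miR-7058-5p: uAGAGGGGaggugaccguggaagu
miR-6898-5p: uGUAAGGGgagaugcagggagc
miR-7020-5p: uGGGAUGGuggagagggugaccag

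The mature sequences were rich in G. The median G content was 52.3% over the 40 matched miRNAs (range 9.09% to 66.7%), against 28.6% over 628 other mouse miRNAs numbered 6000 or higher and 26.9% over all 1679 mouse mature sequences. The run GGGG was in 24 of 40 (60%), against 13.1% of the other high-numbered miRNAs and 11.2% of all. The run GGG, which every GGGG also holds, was in 32 of 40 (80%), against 34.6% and 30.6%. Of the 40, 30 were 5p arms, and the arms differ. The 5p members had a median G content of 53.3%, GGGG in 63.3% and GGG in 90%. Other 5p arms numbered 6000 or higher had a median of 39.1%, GGGG in 24.1% and GGG in 58.6%, and other 3p arms 18.2%, 3.61% and 12.3%. These are matches on the RNA strand only and a description of the letters.

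The 40 miRNAs carried 39 different seeds. miR-7047-5p and miR-6965-5p were the only pair with the same one, and miR-3103-5p has it too. In all, 7 miRNAs shared a seed with another mouse miRNA, and 22 had at least 4 G among the bases of the seed.

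The hairpins lay on 17 chromosomes, and 34 of the 40 matched miRNAs fell within the span of a protein-coding gene. The annotation used here gave gene spans without strand or exons, so intronic or exonic position was not read from it. Among the spanning genes were Pml, a tumor suppressor that builds nuclear bodies (miR-6385, chr9:58221155-58221175, plus strand), Chd4, a chromatin remodeler (miR-7045-5p, chr6:125097029-125097049, plus strand), and Hdac5, a histone deacetylase (miR-8101, chr11:102230103-102230124, minus strand). No annotated gene spanned miR-6366 (chr16:18165093-18165114, minus strand) or miR-8110 (chr8:89024791-89024811, plus strand), and miR-8117 (chr5:50252823-50252843, plus strand) lay in the span of the lncRNA gene Gm40301. miR-6969-5p (chr17:28558475-28558496, minus strand) lay in that of Clps, which encodes the pancreatic colipase, and miR-7005-5p (chr2:180179797-180179818, minus strand) in that of Lama5, a laminin chain. miR-7020-5p (chr4:139644047-139644070, plus strand) lay in the span of Aldh4a1, a mitochondrial enzyme of proline breakdown.

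An intron ends in AG, and 28 of 39 hairpin sequences with a RefSeq entry ended in these bases (71.8%). The share was 48.7% for the hairpins of other miRNAs numbered 6000 or higher, 8.03% for hairpins numbered under 1000 and 24.4% for all. These other miRNAs include the second arm of hairpins of members, so the 48.7% also counts hairpins of members and is no separate background. For 5p arms alone it was 89.7% of the hairpins of members (26 of 29) and 62% of those of other miRNAs numbered 6000 or higher (145 of 234).

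The 44 miRNAs were chosen by their number and by the detection flags of both arrays, so detection is given as a description. At week-3, 43 of the 44 were detected, and at week-0, 27. Of all 1881 miRNAs, 10.3% were detected at week-3 and 9.46% at week-0. Of the 44, 26 were detected on both arrays, 17 at week-3 only and 1, miR-6943-3p, at week-0 only. Over all detected miRNAs, 35 of 213 (16.4%) were detected at week-3 only and 20 (9.39%) at week-0 only. Detection required a probe signal above 3 times its error, and the additive error of the arrays was 3.25 at week-3 and 4.45 at week-0. With the larger error used for both, an alternative chosen after seeing the data, 10 of the 17 remained detected at week-3, against 4 of 18 other miRNAs detected at week-3 only. Just inside the limit were miR-6943-3p, miR-6898-5p and miR-6978-5p, at 3.09, 3.14 and 3.17 times the error on their brighter array. Just outside it were miR-6971-5p, miR-6984-3p and miR-7241-5p, at 2.81, 2.81 and 2.74 times.

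**Figure D1:**
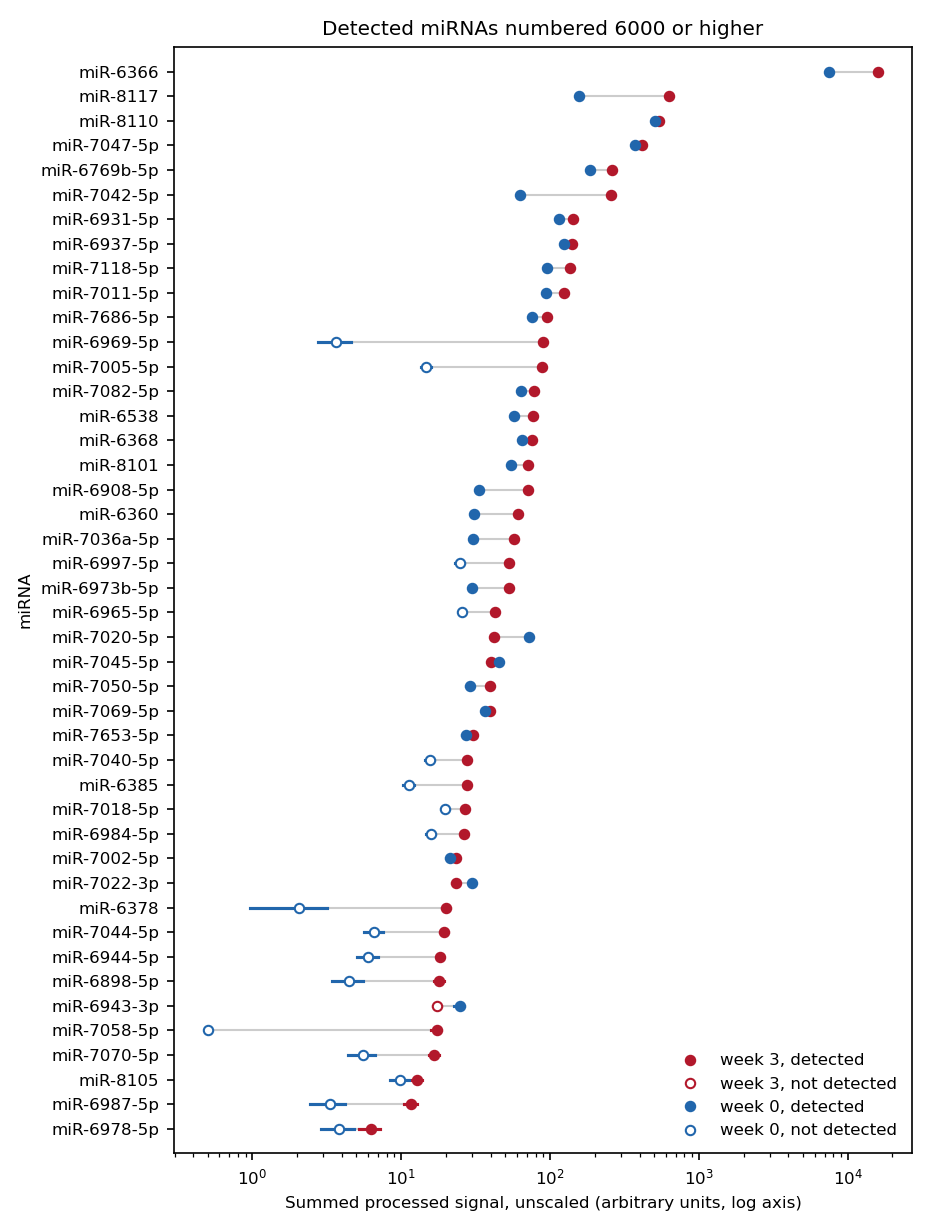
Summed processed signal of each of the 44 miRNAs in arbitrary units on a log axis, at week-3 (red) and week-0 (blue), with lines for the SE over spots and open points for arrays without detection. miR-6366 stands alone at 15935 and 7481, and most red points lie to the right of the blue ones. The week-0 sum of miR-7058-5p was below 0 and is drawn at 0.5.

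Detection was uneven between the arms of the hairpins. A 5p arm is the strand from the 5′ side of the hairpin and a 3p arm the one from its 3′ side. Among miRNAs numbered 6000 or higher, 32 of 295 5p arms were detected (10.8%) and 2 of 293 3p arms (0.683%), miR-6943-3p and miR-7022-3p. Of 126 with no arm in the name, 10 were detected (7.94%). Among miRNAs numbered 1000 to under 6000, detection was 11 of 116 for 5p arms (9.48%) and 7 of 118 for 3p arms (5.93%). Among miRNAs numbered under 1000, detection was 61 of 364 for 5p arms (16.8%) and 54 of 374 for 3p arms (14.4%).

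The other arm of the same hairpin was on the array for all 34 members with an arm in the name, and none of these partner arms was detected at week-3 or at week-0. Partner arms had a median unscaled signal of 2.01 at week-3 and 3.24 at week-0. Their highest values were 16.7 at week-3 and 15.7 at week-0. Members of the same hairpins had medians of 41.2 at week-3 and 28.2 at week-0. Probes differ in binding strength, so these signals are not relative amounts of the arms.

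**Figure D2:**
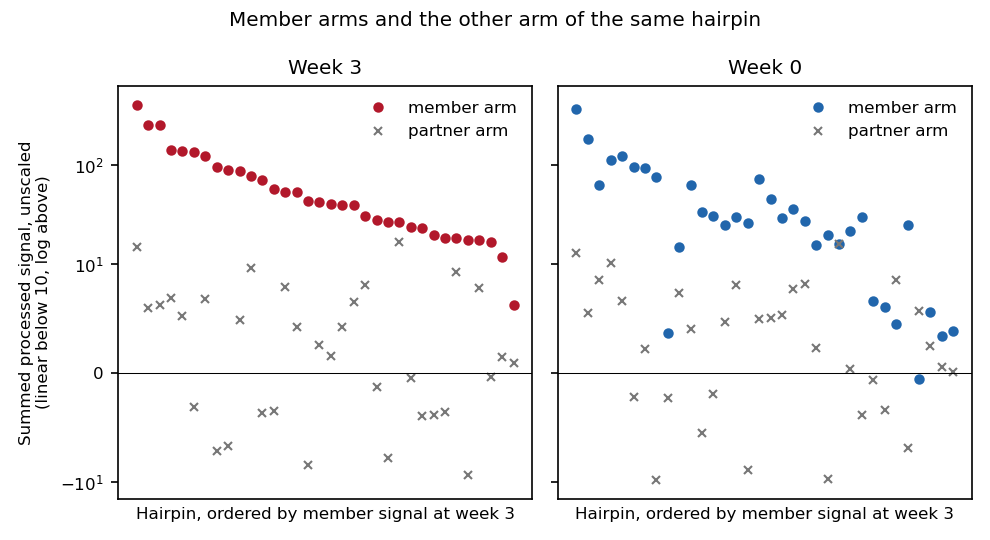
Unscaled summed signal (linear below 10, log above) of the 34 detected arms and of the other arm of the same hairpin, at week-3 (left) and week-0 (right), ordered by the detected arm's signal at week-3. Partner arms stay at or below 16.7 at week-3 and 15.7 at week-0.

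The probes of the arms differed in base content. The median C content was 53.8% over 65 probes of 5p members, which bind G-rich RNA, and 7.18% over 4 probes of 3p members. Among undetected miRNAs numbered 6000 or higher, it was 38.5% for 5p arms and 16.7% for 3p arms, and the median GC content was 56.3% for both. miR-6943-3p had a signal of 17.3 ± 1.08 at week-3 and 24.7 ± 1.85 at week-0 (SE over spots). miR-7022-3p had 23.3 ± 1.36 at week-3 and 30.0 ± 1.31 at week-0. Both 3p members thus had the lower signal at week-3, by less than 1.5-fold, and in neither did any probe have all of its spots apart between the arrays.

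miR-6366 had the largest unscaled sum at week-3, 15935 ± 171, against 7481 ± 55.1 at week-0, a ratio of 2.13. The next sum was that of miR-3963, 7539 ± 68.2 at week-3 and 7418 ± 64.0 at week-0, so at week-0 the order of these miRNAs was within the spot error. miR-6366 held 25.7% ± 0.209 of the summed signal of all detected miRNAs at week-3 and 12.5% ± 0.0830 at week-0. It was measured by an 11-base and a 12-base probe, whose last base is in capitals where it was added:
miR-6366 shorter probe: tggctccccgg
miR-6366 longer probe: tggctccccggG
The shorter probe read 11364 at week-3 and 5303 at week-0, and the longer one 4571 at week-3 and 2179 at week-0. Their ratios of 2.14 and 2.10 were close to each other.

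All 44 miRNAs together made up 32.3% ± 0.194 of the detected signal at week-3 and 16.8% ± 0.0825 at week-0. miR-6366 supplied 79.7% of this at week-3 and 74.1% at week-0. The other 43 held 6.56% at week-3 and 4.36% at week-0, and their summed signal was 1.55 times as high at week-3. The summed signal of all detected miRNAs was 1.03 times as high at week-3, and 0.876 times without miR-6366. miRNAs numbered under 1000 held 38.9% at week-3 and 56.6% at week-0. A share is a share of array signal and not of molecules.

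**Figure D3:**
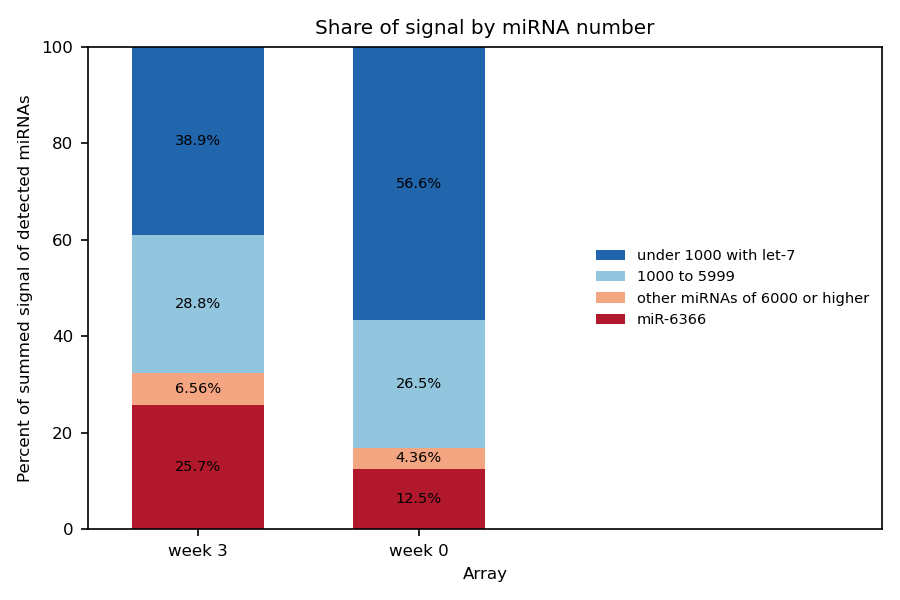
Percent of the summed unscaled signal of all detected miRNAs held by each number class, with week-3 on the left and week-0 on the right. miR-6366 alone has 25.7% at week-3 and 12.5% at week-0, and the class under 1000 has 38.9% and 56.6%.

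For differences between the weeks, sums were quantile normalized over the 1881 miRNAs and given as log2 of week-3 over week-0. A ratio of at least 1.5 was counted as higher and of at most 0.67 as lower, the limits used in the study. Of the 44 miRNAs, 26 were higher (59.1%), 1 was lower and 17 lay in between. Over all 213 detected miRNAs, 25.8% were higher and 28.6% lower. The median log2 difference was 0.78 for the 44 and 0.00 for all detected. It was 0.49 for 42 detected miRNAs numbered 1000 to under 6000, of which 16 were higher and 2 lower. It was -0.48 for 127 numbered under 1000, of which 13 were higher and 58 lower. Without normalization the median of all detected miRNAs was -0.15, and the 44 had 22 higher (50%) and 1 lower with a median of 0.60. Over all 213, 43 were then higher (20.2%) and 76 lower.

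The 17 miRNAs detected at week-3 only had passed the rule through their brighter array. Both arrays detected 26, of which 10 were higher (38.5%) and 1 lower, with a median of 0.52. The background on both arrays was 19% higher and 26.6% lower. Of the 26, 16 had a probe with every spot well above background on both arrays. These had 7 higher and 1 lower and a median of 0.55. All 112 detected miRNAs that met this condition had 20 higher (17.9%) and 34 lower and a median of -0.09. By arm, 22 of the 32 5p members were higher and 1 lower (median 0.81), neither 3p member passed a limit (median -0.29), and 4 of 10 with no arm in the name were higher (median 0.55). Of the 5p members, 14 were detected at week-3 only. Where both arrays gave detection, 8 of 18 5p members were higher and 1 lower (median 0.55), and 2 of 7 with no arm in the name were higher (median 0.49). An RMA-like summary with an offset of 50, which pulls dim signals together, left 4 of the 44 higher and 0 lower, against 10 of 213 higher over all detected miRNAs.

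**Figure D4:**
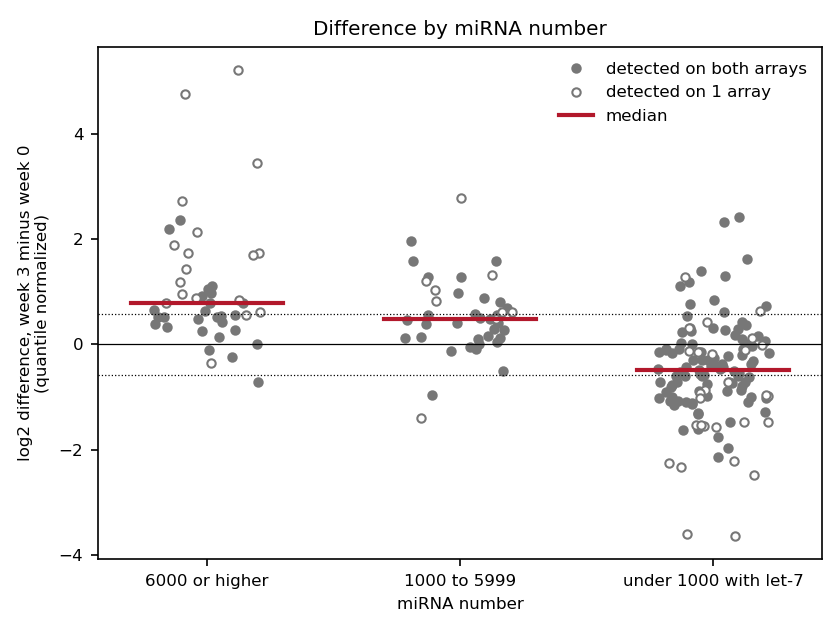
Quantile normalized log2 difference, week-3 minus week-0, of each detected miRNA by number class, with filled points for detection on both arrays, open points for 1 array, red lines for medians and dotted lines at ratios of 1.5 and 0.67. The medians are 0.78 for 6000 or higher, 0.49 for 1000 to under 6000 and -0.48 for under 1000.

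miR-6366 ranked first on both arrays by summed probes, so quantile normalization gave it a difference of 0.00. With the brightest probe alone or the scanner's total it was 0.62 or 0.66. Where both arrays gave detection, miR-8117 and miR-7042-5p had the widest differences. miR-8117 had an unscaled signal of 628 ± 5.56 at week-3 and 157 ± 2.77 at week-0, 4.01 times as high, and a normalized log2 difference of 2.37. miR-7042-5p had 259 ± 3.26 at week-3 and 62.8 ± 1.77 at week-0, 4.12 times as high, with a difference of 2.20. Both stayed higher past 1.5-fold under each of 8 alternatives, between 1.30 and 2.44 for miR-8117 and between 1.03 and 2.63 for miR-7042-5p.

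Smaller differences followed. miR-6908-5p had signals of 71.4 ± 1.37 at week-3 and 33.3 ± 1.26 at week-0 (log2 difference 1.1). miR-6360 had 61.3 ± 1.62 at week-3 and 30.8 ± 1.17 at week-0 (1.06). miR-7036a-5p had 57.1 ± 1.72 at week-3 and 30.6 ± 1.06 at week-0 (0.97). At week-0, the share of spots well above background on the best probe was 100% for miR-6908-5p, 13.3% for miR-6360 and 0% for miR-7036a-5p. The RMA-like summary gave 0.30, 0.30 and 0.28 for these 3, all under 1.5-fold, and the scanner's own total per miRNA gave 0.37 for miR-6908-5p, also under it. miR-6973b-5p had 53.1 ± 1.12 at week-3 and 29.7 ± 1.07 at week-0 (0.91), but the scanner's total gave -0.85, the reverse direction.

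For the next miRNAs the call also depended on the scaling. miR-7118-5p had 137 ± 2.04 at week-3 and 95.7 ± 1.28 at week-0, miR-6769b-5p 260.2 ± 3.07 at week-3 and 187 ± 2.01 at week-0, and miR-6931-5p 142 ± 2.72 at week-3 and 115 ± 2.10 at week-0. Their normalized log2 differences were 0.79, 0.78 and 0.65, all counted as higher. Their unscaled ratios were 1.43, 1.39 and 1.24, all under 1.5. miR-7011-5p, also counted as higher (0.63), had 124 ± 1.82 at week-3 and 94.2 ± 1.60 at week-0, an unscaled ratio of 1.32.

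Before normalization, the bright signals of miR-8110 and miR-7047-5p moved little. Their normalized differences were near 0.52, the median of the miRNAs numbered 6000 or higher that both arrays detected. miR-8110, whose mature sequence ends in a run of G, had 537 ± 5.16 at week-3 and 506 ± 3.82 at week-0, an unscaled ratio of 1.06 and a normalized log2 difference of 0.53. miR-7047-5p had 415 ± 3.07 at week-3 and 374 ± 3.5 at week-0, a ratio of 1.11 and a difference of 0.52. miR-6965-5p, with the same seed, had 42.9 ± 1.22 at week-3 and 25.7 ± 0.924 at week-0, and was detected at week-3 only (0.84).

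miR-7020-5p was the only one of the 44 that fell past the limit. It had 42.3 ± 1.56 at week-3 and 72.3 ± 1.31 at week-0, an unscaled ratio of 0.585. The unscaled log2 difference was -0.77 ± 0.06 (SE over spots) and the normalized one -0.71. Its direction was negative under each of 8 alternatives, and it passed the limit in 5 of them.

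For the 18 miRNAs detected on 1 array, the fold was bounded by setting the brighter array against the higher of the lowest detected signal and the miRNA's own signal on the other array, after normalization. For 11 of them the lowest detected signal was the higher, which gave bounds from 1.07 to 5.81, of which 5 were at least 1.5. For 4 others, miR-6943-3p, miR-6965-5p, miR-6997-5p and miR-7018-5p, their own signal was the higher, so the value equals the normalized ratio and is no lower bound. For miR-6978-5p, miR-6987-5p and miR-8105 the bound was negative on the log2 scale (-1.37, -0.46 and -0.30), so 0.00 was used. Negative bounds among all 213 detected miRNAs were treated in the same way. With these values in place of the fitted ones, the median of the 44 was 0.52 and 18 were higher. Over all 213 the median was 0.00 and 19.7% were higher. miR-6969-5p had 89.9 ± 2.19 at week-3 and 3.66 ± 0.921 at week-0 and was at least 5.81-fold higher at week-3. miR-7005-5p had 88.2 ± 1.59 at week-3 and 14.8 ± 1.08 at week-0 and was at least 5.47-fold higher. Both bounds hold for the main summary only. In the authors' table the log2 differences of miR-6969-5p and miR-7005-5p were 3.07 and 2.19. With the RMA-like summary they were 0.77 and 0.58, and that of miR-7005-5p was then under 1.5-fold. Every spot of the brightest probes of miR-6969-5p and miR-7005-5p was well above background at week-3 and none at week-0.

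The other miRNAs with wide fitted differences were dim on both arrays. miR-7058-5p had 17.3 ± 1.34 at week-3 and -0.56 ± 1.16 at week-0, so its difference of 5.20 rested on the floor of 0.5 and its bound was at least 1.09-fold. miR-6378 had 20.1 ± 1.25 at week-3 and 2.06 ± 1.1 at week-0, at least 1.29-fold higher. miR-6898-5p had 18 ± 1.47 at week-3 and 4.48 ± 1.04 at week-0, at least 1.15-fold higher. Their bounds were far smaller than their fitted log2 differences of 5.20, 3.43 and 2.13.

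The 44 miRNAs were read by 89 probes, 2 for each of 43 miRNAs and 3 for the other one. Probes were short, with a median of 14 bases (9 to 17), and GC-rich, with a median GC content of 66.7% (43.8% to 100%) and a median C content of 53.3%. Detected miRNAs numbered 1000 to under 6000 had probes with a median GC content of 64.3%, and those numbered under 1000 had 47.2% and a median length of 17 bases. For the matched miRNAs, all 81 probes were complementary to the 3′ end of the mature sequence, and 58 of them left the whole seed unbound.

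A ratio was read for 57 probes with at least 50% of spots well above background on at least 1 of the arrays. Of these, 26 met the condition at week-3 only and 1 at week-0 only, so a probe could pass through its brighter array, and a ratio above 1 follows in part from the condition. Over all 57 the median unscaled ratio of week-3 over week-0 was 1.42, and 54 were above 1. Over the 30 probes of 20 miRNAs that met it on both arrays, the median was 1.24, and 28 were above 1. On both arrays, 50 probes of detected miRNAs numbered 1000 to under 6000 had a median of 1.1, and 141 probes of those numbered under 1000 had 0.595. In 25 of the 89 probes (28.1%) every week-3 spot lay above every week-0 spot, and in 2 every one lay below. The background over 459 probes of detected miRNAs was 13.7% above and 27.2% below. By class, it was 19 of 90 above (21.1%) and 7 below for detected miRNAs numbered 1000 to under 6000. For those numbered under 1000 it was 19 of 280 above (6.79%) and 116 below.

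Probe ratios were also set against GC content. Across the 57 probes the log2 ratio had a Pearson correlation of -0.45 with GC content and a Spearman correlation of -0.37. Without the probes of miR-6969-5p, which have the lowest GC content of these, Pearson's value was -0.25 and Spearman's -0.30. Over the 30 probes that met the condition on both arrays, they were -0.23 and -0.18. The lowest GC content of these 30 was 60%, so they also spanned a narrower range of GC. Whether range or signal made the relation weaker was not tested. Spearman correlations over the 57 were -0.55 with C content and 0.35 with length. These are descriptions, and 20 correlations over 5 groups of probes were computed beside those on subsets. Probes share the arrays, their miRNAs and their base content.

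In bins of GC content, the median ratio of the 57 was 1.44 from 60% to below 70% (27 probes) and 1.32 at 70% or more (23 probes). Other detected miRNAs had medians of 1.20 and 1.13 in the same bins (42 and 30 probes). Of the 7 probes below 60%, 6 had no spot well above background at week-0 and none met the condition on both arrays (0 of 7), so no median ratio is given for them. Over probes of undetected miRNAs of all numbers, the median signal difference of week-3 minus week-0 was between 0.07 and 0.15 units in the 3 bins.

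**Figure D5:**
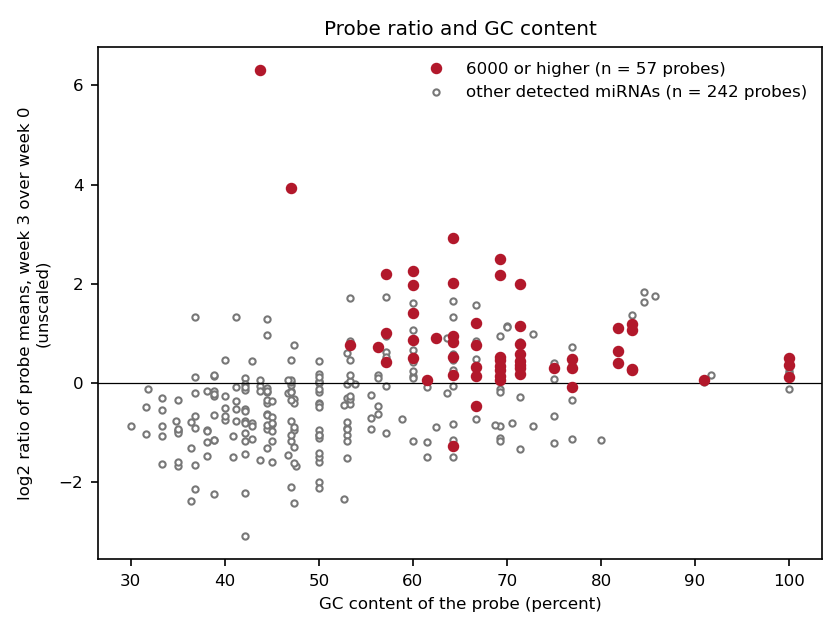
Unscaled log2 ratio of probe means, week-3 over week-0, against the GC content of the probe, for 57 probes of miRNAs numbered 6000 or higher (red) and probes of other detected miRNAs (open). Of the red probes, 54 lie above 0. The highest ones are the 2 probes of miR-6969-5p, which had no spot well above background at week-0.

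The probes of a miRNA were nested: in all 44 the longer one was the shorter one with bases added at its 3′ end, so they are not independent readings. In 10 miRNAs both met the condition on both arrays, and the direction was the same in all 10. The median distance between the log2 ratios of such a pair was 0.07, and the widest was 0.19, for miR-7011-5p. The probes of miR-6969-5p, shown because the widest bound rests on them, had no spot well above background at week-0. The shorter one averaged 42.2 at week-3 and 0.53 at week-0, and the longer one 47.8 at week-3 and 3.13 at week-0:
miR-6969-5p shorter probe: tcttttgctccctact
miR-6969-5p longer probe: tcttttgctccctactC

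Probes of 1 miRNA that differ by a single base could read very different signals. The shorter probe of miR-6937-5p averaged 2.70 at week-3 and -0.50 at week-0, and the longer one 137 at week-3 and 124 at week-0. The longer probe of miR-6937-5p and that of miR-7047-5p share a run of 12 bases, and the unscaled ratios of these miRNAs were 1.13 and 1.11. The added base of the longer probe is in capitals:
miR-6937-5p shorter probe: acacagacccagcc
miR-6937-5p longer probe: acacagacccagccC
miR-7047-5p longer probe: tcagacccagcccT
Runs of 12 bases were also shared by miR-6769b-5p and miR-7036a-5p (ratios 1.39 and 1.87), of 10 by miR-7011-5p and miR-7118-5p (1.32 and 1.43), and of 9 by miR-6368 and miR-7082-5p (1.16 and 1.23) and by miR-7020-5p and miR-7069-5p (0.585 and 1.08). Cross-hybridisation between such pairs was not tested.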

How the data were processed

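RNA of LSKs carried a Cy3 label and was read on Agilent mouse miRNA arrays. The authors used Feature Extraction 10.7.1.1 on the scans, and the deposited scanner files hold intensity values per spot, background-subtracted and not normalized between arrays. The authors also deposited a log2 table, quantile normalized with AgiMicroRna, used here as an alternative. Groups were taken from the time in the labels, with 1 array each, and the number of arrays limits the precision.

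Control spots and outlier spots (1600 at week-3 and 1941 at week-0) were left out, processed signals were averaged per probe and summed per miRNA, quantile normalized over 1881 miRNAs and taken to log2 above a floor of 0.5. No spot of a miRNA was saturated (0 on each array). Spot errors of both arrays were combined. Sequences and gene spans came from RefSeq GRCm38.p6. Python 3.11.15 with pandas 2.3.3 and scipy 1.17.1, and R 4.3.3 with limma 3.58.1 for the RMA-like summary, were used. Averaging, summing and normalization were tested on simulated spots, with changes placed in brighter miRNAs only. Detection, bounds, GC content and sequence steps were not simulated.

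The members, the lists and the main summary were chosen with earlier results of these data known. The summed probe means had been taken in place of the scanner's total per miRNA after differences under both had been seen. The GC bins, the condition of 50% of spots for a probe ratio on 1 or both arrays, the bounds on shared runs and the comparisons with partner arms, nested probes and hairpin ends were set after values had been seen. Named with full values were miR-6366, the 10 miRNAs detected on both arrays and the 5 detected on 1 array with the widest differences, the 5 brightest, those lower past the limit and those sharing a seed. miR-7011-5p, miR-6937-5p and both 3p members were added after their values were seen.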

Additional observations from a re-analysis of the deposited data

How the results depend on the processing

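With 1 array per group no library could be left out. No paired analysis was possible because each group had 1 array. A slide block was not run, since both arrays lay on 1 slide. The 8 alternatives for scaling, background, summary and spots and a filter on dim probes kept the median of all 44, of those detected on both arrays and of the 5p arms above 0 and that of the 3p arms below 0, except that the filter left no 3p arm. The count of higher miRNAs stayed between 22 and 31 except at 4 with the RMA-like summary and 7 with the filter, which left 16 miRNAs, and it was 19 of 37 with the larger detection error, an alternative added after seeing the data. The count of lower ones was 0 with the 75th percentile of the miRNAs that both arrays detected, 0 with the RMA-like summary, 0 with the brightest probe alone and 5 with the scanner's total. The median of the 44 was 0.60 without normalization, 0.17 with the RMA-like summary, 0.61 in the authors' table, 0.55 with the filter and 0.61 with the larger detection error. For those detected on both arrays it was 0.36 without normalization and 0.20 with the RMA-like summary.

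For 5p arms the median was 0.98 with the 75th percentile of those both arrays detected, 0.17 with the RMA-like summary, 0.59 in the authors' table and 0.63 with the filter. For the 3p arms it was -0.44 without normalization, -0.031 with the RMA-like summary, -0.11 in the authors' table and -3.29 with the scanner's total. miR-6366, at 0.00 by its rank, was 1.36 and 1.15 with the 75th percentile of those both arrays detected and of all miRNAs, 1.09 without normalization, 0.86 with the RMA-like summary, 0.62 with the brightest probe, 0.66 with the scanner's total and 0.76 in the authors' table. The share of signal of the 44 at week-3 was 27.9% with the scanner's total, 31.1% in the authors' table and 30.7% with the filter. At week-0 it was 14.0% with the scanner's total, 16.6% with the brightest probe, 20.0% in the authors' table and 15.9% with the filter. The share of miR-6366 was 20.7% with the scanner's total and 24.6% in the authors' table at week-3, and 9.41% and 15.9% at week-0. The Pearson correlation of GC content with the probe ratio was -0.22 with the filter. Among single miRNAs with a called difference, miR-6973b-5p alone reversed, at -0.85 with the scanner's total. Except where an alternative has fewer miRNAs or fixes a rank, the cause was not tested.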
